A study of Mus musculus with 6 samples.

Results

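The genes described are mouse RING finger genes that carry an Rnf symbol, other than Rnf8, the gene deleted in the knockout, and other than Rnf2, Rnf17, Rnf20, Rnf40, Rnf168 and Rnf212, which the selection left out. A gene was taken where a transcript cluster of the array lists it alone, where its symbol is Rnf followed by digits, and where its log2 intensity reached 6 on at least 1 array. Of 80 Rnf genes with such a cluster, 75 remained after the named genes were left out, and the level filter removed none of them. They are 75 of 17925 genes tested on these arrays. The level nearest the filter was that of Rnf183, whose highest array lay at 6.65.

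RNA came from purified germ cells of C57BL/6 males on Affymetrix MoGene 1.0 ST arrays, which give 1 intensity per transcript cluster. Pachytene spermatocytes had 2 arrays from wild-type (WT) and 2 from RNF8-KO (KO) males, and round spermatids had 1 array per genotype, numbered as replicate 2 in its title. No spermatid array numbered 1 was analysed here. Pachytene spermatocytes are in the long prophase of meiosis, and round spermatids are the haploid cells that follow it. Per the series' design text, cells were enriched from 3 to 4 males by sedimentation through albumin, with a stated enrichment above 95%, so an array stands for a pool of animals. The sources used here do not describe how the Rnf8 allele was made, and no label says that the arrays of a group came from separate pools. The p-values therefore measure the spread between these arrays, which may be technical.

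A RING finger is a small zinc-binding fold that most of these proteins use to bring a ubiquitin-charged E2 enzyme to a substrate, so that ubiquitin is passed on to it. E1 enzymes activate ubiquitin, E2 enzymes carry it and E3 ligases choose the substrate. RING-between-RING ligases differ in that they hold the ubiquitin themselves before passing it on. In germ cells, ubiquitin marks histones on the silenced sex chromosomes of meiosis, and ubiquitin-dependent breakdown accompanies the remodelling of spermatids.

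Rnf8 itself is measured by 1 cluster that is shared with Gm28043, and whether its probes lie in the deleted part is unknown here. Its log2 intensity was 8.51 and 8.86 on the WT pachytene arrays and 7.86 and 8.05 on the KO pachytene arrays, so the genotypes did not overlap there. The spermatid arrays read 7.78 (WT) and 7.50 (KO). Median intensity per array ran from 197 to 218. Of 9 tested pachytene markers 7 passed as lower in round spermatids, and of 10 spermatid markers 7 passed as higher. The pachytene markers Ccna1 and Hspa2, at 0.14 and -0.12, did not pass. Neither did the spermatid markers Prm1, Prm2 and Acr, which were also bright on the pachytene arrays. They read 12.67 to 13.44 there and 12.92 to 13.56 in spermatids. The source of that pachytene signal was not tested. Of 6 tested Leydig cell markers 6 were lower in round spermatids, with summed intensities of 4689 to 6905 on the pachytene and 1044 to 1277 on the spermatid arrays. Of 11 Sertoli cell markers 6 were lower, with sums of 6730 to 8201 against 3859 to 4516. For 8 peritubular and vessel markers the sums were 2140 to 2549 against 3482 to 4462, with 2 higher, Dcn and Vwf. Without Dcn, which read 7.59 to 8.30 in pachytene cells and 10.60 and 11.03 in WT and KO spermatids, the other 7 summed to 1825 to 2271 against 1934 to 2371. For 5 macrophage and blood markers the sums were 589 to 617 against 760 to 821, with 2 higher. No marker was listed at 0, which these intensities do not reach. The part of these cells in the differences below was not tested, and in a bulk fraction fewer cells of a type and less RNA per cell cannot be told apart. The 2 KO pachytene arrays differed from each other in the members that rose after meiosis, as given below.

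Round spermatids differed from pachytene spermatocytes in 34 of the 75 genes. The X-linked retrogene Rnf138rt1, the membrane ligase genes Rnf133 and Rnf148 and the acrosome-associated Rnf151 rose most, between 2.34-fold and 3.91-fold. The p53-inducible ligase gene Rnf144b and Rnf6, whose protein modifies the androgen receptor, fell most, 4.70-fold and 3.82-fold. In limma's additive fit of cell type and genotype, with Benjamini-Hochberg adjustment over all 17925 genes, 21 members rose and 13 fell at an adjusted p under 0.05. Over all tested genes 34.9% passed, 17.8% as higher and 17.1% as lower. Among the members it was 45.3%, 28.0% as higher and 17.3% as lower. Members lay at brighter levels than the array as a whole: 57 of 75 had a mean log2 intensity of 8 or more, and of these 54.4% passed, against 49.4% of all 10424 tested genes at such levels. At least 2-fold higher were 7 members, against 7.19% of all tested genes, and at least 2-fold lower were 4, against 4.18%. The median difference over the members was 0.04 on the log2 scale, and over all tested genes -0.06.

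**Figure D1:**
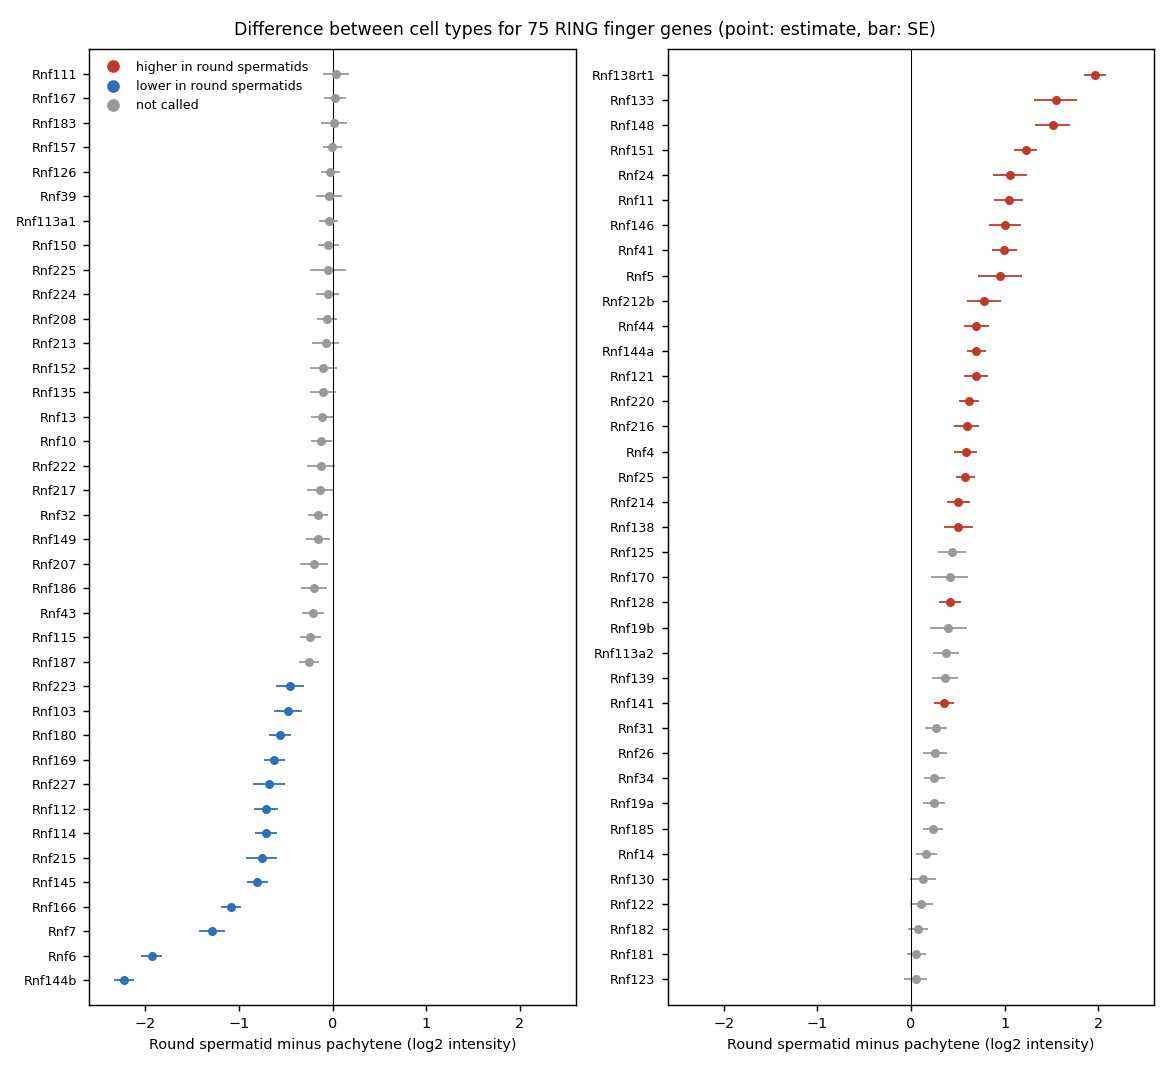
Difference between round spermatids and pachytene spermatocytes (x axis, log2 intensity) for each of the 75 genes, with its standard error as a bar, sorted from the largest fall at the lower left to the largest rise at the upper right. Red points rose and blue points fell at an adjusted p under 0.05, grey points did not pass; Rnf144b at -2.23 and Rnf138rt1 at 1.97 mark the ends.

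Both spermatid arrays lay above all 4 pachytene arrays in 30 of the 75 members, against 24.1% of all tested genes, and below them in 17, against 26.4%. The 34 members that passed are among these. The count rests on the number of spermatid arrays. Without 1 spermatid array the fit is that of the other genotype alone. Its smaller counts are given below, beside the smaller shares of all tested genes. Both such fits are among the 12 alternatives named here, so members that passed under all of these also passed in each genotype. Without KO pachytene array 1, 39 members passed, among them all 34, where 49.4% of all tested genes did, and without KO pachytene array 2, 33 passed (36.4%). Without WT pachytene array 1 it was 28 (28.5%) and without WT pachytene array 2 also 28 (27.5%). None of the 34 changed sign under any of the 12 alternatives run, and 12 passed under all of them: Rnf11, Rnf41, Rnf133, Rnf138rt1, Rnf144a, Rnf148 and Rnf151, which rose, and Rnf6, Rnf7, Rnf144b, Rnf145 and Rnf166, which fell.

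Genes known for testis expression form the group in which the largest share rose: 5 of 6 rose and 0 fell, with a median of 1.37. Over all tested genes 17.8% rose and 17.1% fell. The groups were drawn up with earlier results of these data known, so this ranking describes the values and is not a test. Rnf138rt1 is an X-linked retrogene copy of Rnf138. Its log2 intensity was 8.30 and 8.22 on the WT and 8.76 and 8.53 on the KO pachytene arrays, and 10.25 and 10.58 on the WT and KO spermatid arrays. All 4 pachytene arrays lay far below both spermatid arrays, and the difference was 1.97 (SE 0.11, adjusted p = 8.44e-05 in limma, 4 against 2 arrays). Probes of a retrogene and its parent can bind both transcripts, so the share of each in this value is uncertain.

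Rnf133 and Rnf148 encode related ligases with a protease-associated domain and a membrane span, and RefSeq places them next to each other on chromosome 6. Rnf133 read 9.88 and 10.09 in WT pachytene, 10.76 and 10.01 in KO pachytene, and 11.83 and 11.63 in WT and KO spermatids. It rose by 1.54 (SE 0.23, adjusted p = 0.00132 in limma). Rnf148 read 9.98 and 10.28 in WT pachytene, 10.54 and 9.90 in KO pachytene, and 11.75 and 11.63 in WT and KO spermatids. Its rise was 1.51 (SE 0.19, adjusted p = 0.000662 in limma). In both genes KO pachytene array 1 was the highest of the 4 pachytene arrays, and it still lay below both spermatid arrays.

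Rnf151, whose protein has been linked to the forming acrosome, read 10.66 and 10.84 in WT pachytene, 10.74 and 10.49 in KO pachytene, and 11.87 and 11.94 in WT and KO spermatids. It rose by 1.22 (SE 0.13, adjusted p = 0.000321 in limma). The fifth riser, Rnf141, a gene also known from testis, rose by 0.35 (SE 0.11, adjusted p = 0.0390 in limma). A second cluster of Rnf141 lay at -0.16, and the mean of its clusters, 0.10, did not pass (adjusted p = 0.552). Rnf32 was already bright in pachytene cells, between 12.60 and 12.75, and lay at 12.58 and 12.51 in WT and KO spermatids. Its difference of -0.15 did not pass (95% interval -0.40 to 0.09, adjusted p = 0.323).

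**Figure D2:**
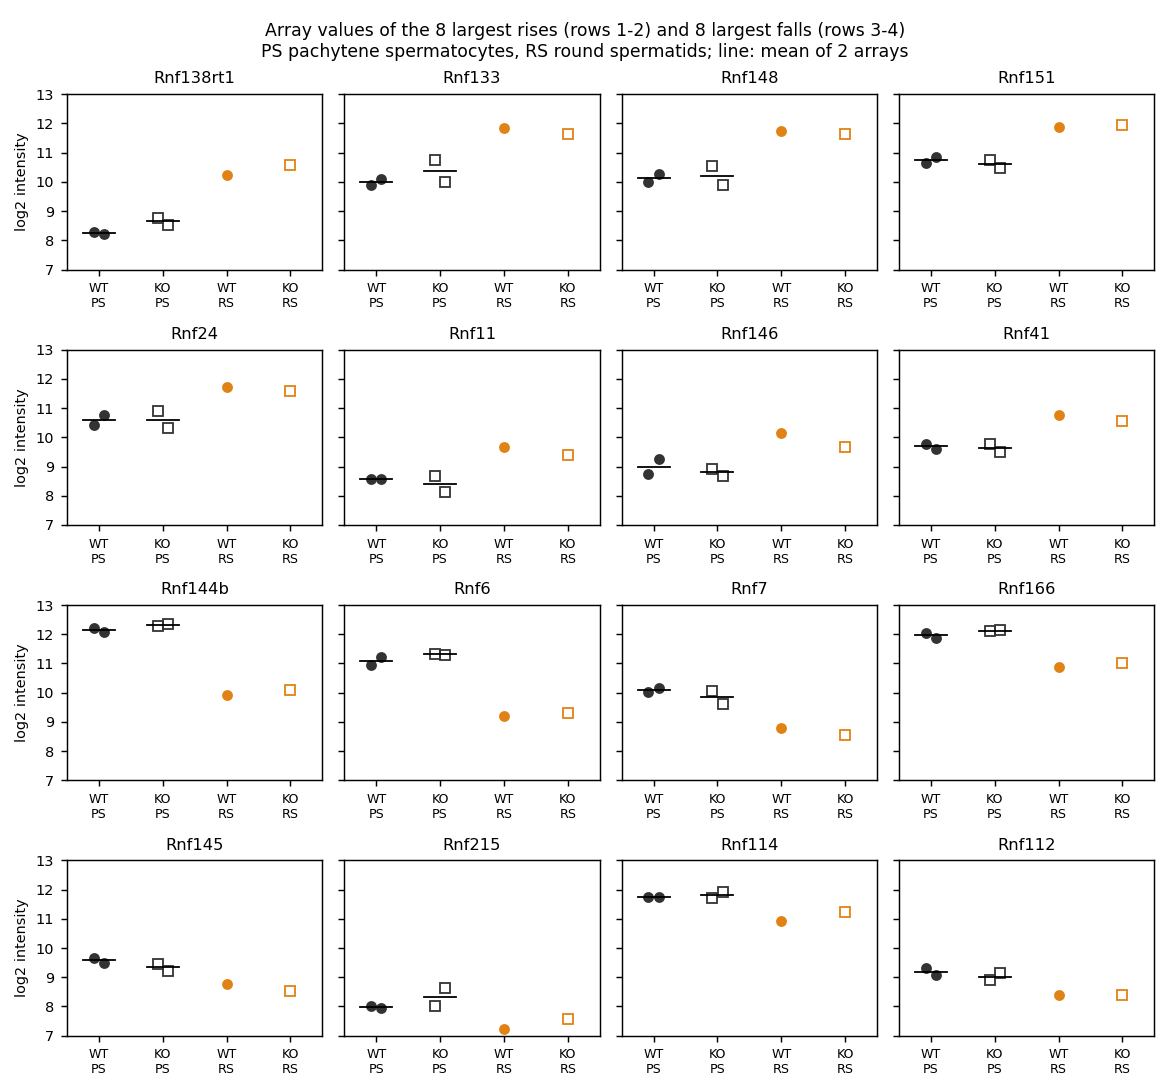
Log2 intensity (y axis) on each of the 6 arrays for the 8 members with the largest rises, in the upper rows, and the 8 with the largest falls, in the lower rows. Filled circles are WT and open squares KO, dark for pachytene (PS) and orange for round spermatids (RS), and the line is the mean of the 2 arrays of a pachytene group; in each panel both RS arrays lie on the same side of all 4 PS arrays, as for Rnf144b at 9.92 and 10.08 against 12.08 to 12.36.

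Promoter windows of RefSeq (GRCm38.p6), from 250 bases before to 50 bases after a gene's start, were listed for 60 of the 75 members. They are printed for the members with the largest rises and falls, and for Rnf148 beside its neighbour Rnf133, so that the promoters of genes that moved together and apart can be read side by side. Rnf148 was added after its values were seen. For Rnf144b the first of 2 listed windows is shown and for Rnf6 the first of 3. The windows are chrX:163761283-163761582 (minus strand) for Rnf138rt1, chr6:23650256-23650555 (minus) for Rnf133, chr6:23655087-23655386 (minus) for Rnf148, chr13:47122470-47122769 (plus) for Rnf144b and chr5:146221408-146221707 (minus) for Rnf6. Capitals mark matches, on either strand, to the cAMP response element TGACGTCA, to its core TGACG (which lies within the full element), to a MYB-like core TAACNG and to the X-box core GTTGCC.
Rnf138rt1: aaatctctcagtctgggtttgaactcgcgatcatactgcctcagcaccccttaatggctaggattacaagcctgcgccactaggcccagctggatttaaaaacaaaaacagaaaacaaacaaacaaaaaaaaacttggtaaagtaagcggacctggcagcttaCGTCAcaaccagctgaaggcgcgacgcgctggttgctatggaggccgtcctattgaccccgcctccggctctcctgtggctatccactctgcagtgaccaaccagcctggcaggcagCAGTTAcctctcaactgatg
Rnf133: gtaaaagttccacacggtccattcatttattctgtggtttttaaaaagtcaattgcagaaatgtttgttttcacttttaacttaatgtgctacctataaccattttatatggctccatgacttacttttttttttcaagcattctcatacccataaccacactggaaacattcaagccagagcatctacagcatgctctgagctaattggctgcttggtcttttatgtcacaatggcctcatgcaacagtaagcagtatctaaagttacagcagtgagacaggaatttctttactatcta
Rnf148: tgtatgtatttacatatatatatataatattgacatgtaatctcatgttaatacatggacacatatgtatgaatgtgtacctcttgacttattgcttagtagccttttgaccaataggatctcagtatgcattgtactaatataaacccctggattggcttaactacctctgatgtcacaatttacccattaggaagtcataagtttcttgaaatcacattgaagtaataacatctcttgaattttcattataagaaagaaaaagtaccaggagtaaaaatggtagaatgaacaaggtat
Rnf144b: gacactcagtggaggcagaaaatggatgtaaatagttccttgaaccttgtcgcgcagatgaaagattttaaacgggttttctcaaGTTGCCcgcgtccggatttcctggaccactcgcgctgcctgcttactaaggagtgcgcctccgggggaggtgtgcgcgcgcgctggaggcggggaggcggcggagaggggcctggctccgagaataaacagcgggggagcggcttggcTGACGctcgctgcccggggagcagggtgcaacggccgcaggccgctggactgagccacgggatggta
Rnf6: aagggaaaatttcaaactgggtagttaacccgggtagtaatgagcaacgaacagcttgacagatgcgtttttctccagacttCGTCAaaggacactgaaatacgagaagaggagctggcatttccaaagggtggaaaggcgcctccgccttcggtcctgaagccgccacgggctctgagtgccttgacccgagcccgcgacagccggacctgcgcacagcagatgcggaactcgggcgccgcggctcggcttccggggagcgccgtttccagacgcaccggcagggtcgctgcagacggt

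The window of Rnf138rt1 holds the core TGACG at position -87 from the start and TAACNG at position 31, both on the strand opposite to the one printed. Rnf133 and Rnf148 hold none of the 4 motifs in these windows. In the windows shown, Rnf144b holds GTTGCC at -165 and TGACG at -17 on the printed strand, and Rnf6 holds TGACG at -168 on the opposite strand. Another listed window of Rnf6, not shown, holds TAACNG at 42. Over the 23 windows of members that rose, TGACG was in 21.7%, TAACNG in 17.4% and GTTGCC in 13%. Over the 18 windows of members that fell it was 33.3%, 5.56% and 11.1%. Of all 32851 windows listed, 20.8% held TGACG, 23.3% TAACNG and 12.5% GTTGCC. The full element TGACGTCA was in 1.79% of all windows and in 1 window of the members, that of Rnf7, which fell. These counts describe letters in fixed windows and no test was made of them.

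Among the 8 RING-between-RING ligases 2 rose and 1 fell (17.8% and 17.1% of all tested genes), with a median of 0.26. Rnf144b read 12.21 and 12.08 in WT pachytene, 12.28 and 12.36 in KO pachytene, and 9.92 and 10.08 in WT and KO spermatids. It had the largest fall of all members, by 2.23 (SE 0.10, adjusted p = 5.70e-05 in limma), and the pachytene values of both genotypes stood far above the spermatid values. Its paralog Rnf144a, known to act on a DNA repair kinase, went the other way. Rnf144a read between 8.66 and 8.71 on the 4 pachytene arrays and 9.39 and 9.37 in WT and KO spermatids. It rose by 0.70 (SE 0.10, adjusted p = 0.00122 in limma), and its pachytene arrays lay close together. Rnf216, a ligase whose loss is known to impair mouse spermatogenesis, rose by 0.60 (SE 0.13). Rnf14, Rnf19a, Rnf19b, Rnf31, the catalytic part of the linear ubiquitin complex, and Rnf217 did not pass, with differences from -0.14 to 0.40.

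The 9 ligases with a protease-associated domain and a membrane span had 3 risers and 0 fallers, and a median of 0.02. Over all tested genes 17.8% rose and 17.1% fell. Beside Rnf133 and Rnf148, the X-linked Rnf128, known from T cell anergy, rose by 0.41 (SE 0.12, adjusted p = 0.0278 in limma). It was among the dimmest members, at 6.49 to 6.75 in pachytene cells and 7.12 and 6.98 in WT and KO spermatids, where the lower quartile of the arrays lay between log2 6.15 and 6.28. The other 6, among them Rnf13, Rnf43, which removes Wnt receptors from the cell surface, and Rnf167, lay between -0.21 and 0.13 and did not pass.

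Of the 16 other membrane ligases 3 rose and 4 fell (17.8% and 17.1% of all tested genes), with a median of 0.09. Rnf24 read 10.43 and 10.75 in WT pachytene, 10.89 and 10.31 in KO pachytene, and 11.73 and 11.58 in WT and KO spermatids, a rise of 1.06 (SE 0.18, adjusted p = 0.00255 in limma). Rnf5, a ligase of protein quality control at the endoplasmic reticulum, rose by 0.95 (SE 0.23), and it had the widest pachytene spread of these, from 8.19 on KO array 2 to 9.34. Rnf121 rose by 0.70 (SE 0.13). Rnf145, a sterol-regulated ligase of the endoplasmic reticulum, read 9.65 and 9.50 in WT pachytene, 9.45 and 9.23 in KO pachytene, and 8.76 and 8.55 in WT and KO spermatids. It fell by 0.80 (SE 0.11, adjusted p = 0.00118 in limma). Rnf112, known from neurons, fell by 0.71 (SE 0.13), and Rnf180 and Rnf103, both of the endoplasmic reticulum, fell by 0.56 and 0.48. The remaining 9 did not pass. Among them, Rnf26 lay at 0.26 in the cluster used and at 0.74 in a second cluster, and the mean of both, 0.50, passed (adjusted p = 0.00558 in limma).

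In the nuclear group, which holds ligases of SUMO, DNA repair and transcription, 4 of 10 measured members rose and 2 fell, with a median of 0.21. The shares over all tested genes were 17.8% and 17.1%. Rnf146, which recognises poly(ADP-ribose) on its substrates, read 8.73 and 9.25 in WT pachytene, 8.93 and 8.68 in KO pachytene, and 10.14 and 9.67 in WT and KO spermatids. It rose by 1.00 (SE 0.17), but its second, dimmer cluster lay at -0.58, and the mean of both, 0.21, did not pass (adjusted p = 0.348 in limma). Rnf44 rose by 0.70, Rnf4, which targets SUMO-modified proteins, by 0.58 and Rnf138, which acts in the resection of DNA breaks, by 0.51. Rnf138 did not pass when the arrays were centred on their medians. Its values carry the same uncertainty between copies as those of Rnf138rt1.

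Rnf6 read 10.95 and 11.21 in WT pachytene, 11.34 and 11.30 in KO pachytene, and 9.21 and 9.32 in WT and KO spermatids. It fell by 1.94 (SE 0.12, adjusted p = 9.86e-05 in limma), and the cell types did not overlap in either genotype. Rnf169, a relative of Rnf168 that binds the histone mark made downstream of Rnf8, read 9.38 and 9.60 in WT pachytene, 9.38 and 9.30 in KO pachytene, and 8.80 and 8.78 in WT and KO spermatids. It fell by 0.62 (SE 0.11, adjusted p = 0.00374 in limma). Rnf111, Rnf113a1, Rnf113a2 and Rnf126 did not pass. The X-linked Rnf113a1 lay between 7.07 and 7.24 on all 6 arrays, with a difference of -0.04 (95% interval -0.29 to 0.20), and its autosomal relative Rnf113a2 lay at 0.38 (adjusted p = 0.0693 in limma).

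Of 14 ligases of signalling, cell death and immunity 5 rose and 1 fell (17.8% and 17.1% of all tested genes), with a median of 0.26. Rnf11, a partner of the NF-kappaB inhibitor A20, read 8.57 on both WT pachytene arrays, 8.67 and 8.14 in KO pachytene, and 9.65 and 9.41 in WT and KO spermatids, a rise of 1.04 (SE 0.15). Rnf41, which controls the level of the receptor ErbB3, read 9.79 and 9.60 in WT pachytene, 9.78 and 9.48 in KO pachytene, and 10.77 and 10.55 in WT and KO spermatids, a rise of 1.00 (SE 0.13). In limma's additive fit the adjusted p was 0.00138 for Rnf11 and 0.000775 for Rnf41. Within WT it was 0.0209 and 0.0124, and within KO 0.0355 and 0.0285, in limma's fit with 4 group means. Rnf25 rose by 0.58, and Rnf128 and Rnf216, named above, also belong here. Rnf7, the RING subunit of cullin 5 ligases, read 10.04 and 10.15 in WT pachytene, 10.07 and 9.63 in KO pachytene, and 8.81 and 8.55 in WT and KO spermatids. It fell by 1.29 (SE 0.14, adjusted p = 0.000394 in limma). In 2 further clusters that Rnf7 shares with Gm35144 the values ran from 8.00 to 8.31 in pachytene cells and from 7.89 to 8.09 in spermatids.

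The 4 ligases that join a RING to C2HC zinc fingers and a ubiquitin-binding motif split: 1 rose and 2 fell. The shares over all tested genes were 17.8% and 17.1%. Rnf166 fell by 1.09 (SE 0.11, adjusted p = 0.000303 in limma), from 11.86 to 12.13 on the pachytene arrays to 10.88 and 11.02 in WT and KO spermatids. Rnf114 fell by 0.71 (SE 0.12), from 11.72 to 11.93 down to 10.93 and 11.23. Rnf138 rose, and Rnf125, which RefSeq places next to Rnf138 on chromosome 18, lay at 0.44 and did not pass (adjusted p = 0.0585 in limma).

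**Figure D3:**
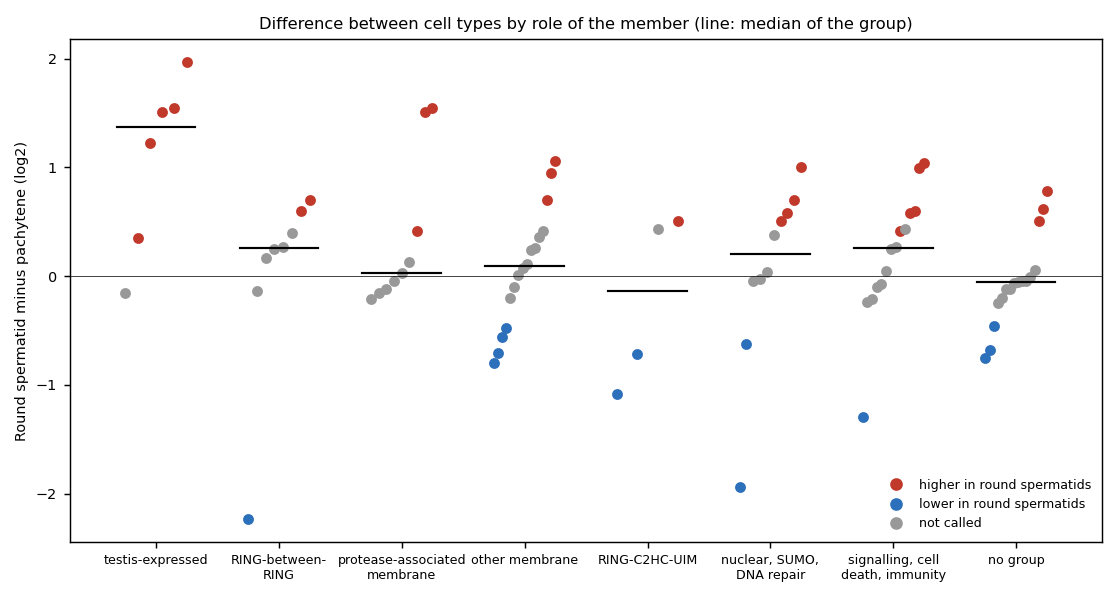
Difference between round spermatids and pachytene spermatocytes (y axis, log2 intensity) for the members of each role group, 1 point per member, with the median as a line; a member of several groups is drawn in each. The testis-expressed group has a median of 1.37 and 5 red points of 6, while the groups of other membrane and nuclear ligases hold red and blue points. The groups were drawn up with earlier results of these data known.

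Of the 16 members that belong to none of these groups, 3 rose, 3 fell and 10 did not pass. Over all tested genes 17.8% rose and 17.1% fell. Rnf212b, a relative of the meiotic crossover gene Rnf212, read 8.11 and 8.24 in WT pachytene, 8.49 and 7.88 in KO pachytene, and 9.10 and 8.82 in WT and KO spermatids. It rose by 0.78 (SE 0.18, adjusted p = 0.0104 in limma), so its transcript was higher after meiosis than in prophase on these arrays. Rnf220 rose by 0.62 and Rnf214 by 0.51. Rnf215 fell by 0.76 (SE 0.16), Rnf227 by 0.68 and Rnf223 by 0.46. Rnf223 did not pass after a second quantile normalization, and Rnf103 of the membrane group did not pass after centring on array medians.

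The 41 members that did not pass had differences from -0.25 to 0.44, and for all 41 the 95% interval lay within 1 log2 unit of 0. Of these, 15 had a mean log2 intensity under 8, against 1 of the 21 that rose and 2 of the 13 that fell. Brightness depends on each cluster's probes, so the order of clusters below is one of signal, not of transcript levels. The clusters of highest signal, those of Rnf126, Rnf32, Rnf181, Rnf139 and Rnf187, had means of 12.12 to 13.21 and none passed. Rnf126, which works with the BAG6 quality control complex, read 13.15 to 13.25 on all 6 arrays, where the highest value of any cluster on an array was 13.65 to 13.77. Those of lowest signal, Rnf183, Rnf152, Rnf128, Rnf135 and Rnf217, had means of 6.41 to 6.84, and of these only Rnf128 passed.

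Of 12 paralog pairs with both members measured, 2 had both called in the same direction (Rnf133 with Rnf148, Rnf138 with Rnf138rt1), 1 in opposite directions (Rnf144a with Rnf144b), 4 had 1 member called, and 5 had neither. Of Rnf24 and Rnf122, Rnf24 rose while Rnf122 lay at 0.11. Of Rnf139 and Rnf145, both ligases of sterol metabolism, Rnf145 fell while Rnf139 lay at 0.36 (adjusted p = 0.0869 in limma). Whether the members of a pair differed from each other was not tested. The members lay on 18 chromosomes, 13 of them on chromosome 11 and 3 on X. On chromosome 17, the chromosome of Rnf8, lay 3: Rnf5, Rnf39 and Rnf151. KO less WT in pachytene cells was -0.61, 0.11 and -0.14 for these, and the part of their location was not tested.

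The difference between the cell types was also taken within each genotype. The 2 differences share no arrays, but 1 fit gave both, with an error pooled over all 4 pachytene arrays, so their calls are not separate. In limma's fit with 4 group means 18 members passed in WT, where 20.0% of all tested genes did, 10 as higher (11.5%) and 8 as lower (8.45%). In KO 13 passed (15.5%), 8 as higher (8.36%) and 5 as lower (7.18%). Both genotypes called 12 members, 7 higher (7.92% of all tested genes) and 5 lower (6.29%), which is 66.7% of the WT calls and 92.3% of the KO calls. Of the 75 members 63 (84%) had the same sign in both genotypes, against 82.3% of all tested genes. Across the members the WT and KO differences correlated at r = 0.97 (Spearman rho 0.94), and across all tested genes at r = 0.94. These describe genes of the same arrays, which are not independent replicates. Each single-genotype count moves with the pachytene arrays, which set its error: in WT 21 members rose without KO pachytene array 1 and as many without array 2, 3 rose without WT pachytene array 1 and 5 without WT pachytene array 2. In KO 4 rose without WT pachytene array 1 and as many without array 2, and 18 rose without KO pachytene array 1. The counts of falls moved likewise, between 3 and 11 in WT and between 4 and 9 in KO. The share of all tested genes called in WT moved too, from 20% to 30.7% without a KO pachytene array and to 9.15% and 7.83% without WT array 1 and 2. In KO it moved from 15.5% to 9.18% without a WT pachytene array and to 21.7% without KO array 1.

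**Figure D4:**
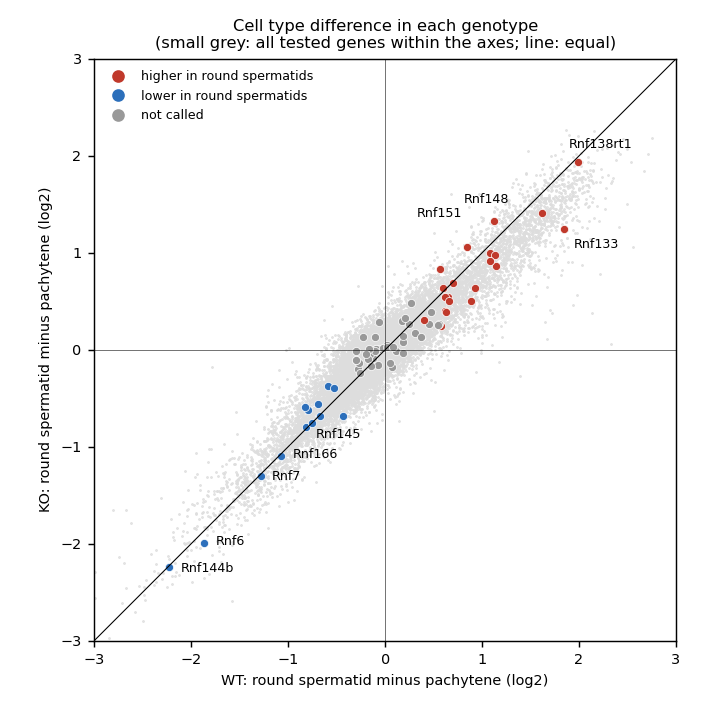
Difference between round spermatids and pachytene spermatocytes in WT (x axis) and in KO (y axis), log2 intensity, for the 75 members as large points over the tested genes in grey, with the line of equal differences. Members follow the line from Rnf144b, at -2.23 in WT and -2.24 in KO, to Rnf138rt1, at 1.99 and 1.94; Rnf133 lies below it, at 1.84 and 1.24.

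No member passed the test of the difference between these differences (limma interaction, 0 genes of 17925 called, 130 genes or 0.725% at an unadjusted p under 0.05, 0 members among them). The smallest unadjusted p of a member was 0.179, for Rnf121, whose KO rise less its WT rise was -0.39 (SE 0.26). Rnf133 rose by 1.84 in WT and 1.24 in KO, and its interaction of -0.60 had an interval from -1.62 to 0.42. For Rnf128 it was -0.33 and for Rnf122 0.35, each with an SE of 0.25 and a 95% interval that includes 0. Of the 21 risers 17 had the smaller rise in KO. The share among all genes that rose was not taken. Differences between the cell types were smaller in KO over all tested genes too. Their median size was 0.28 in WT and 0.22 in KO, and over the 75 members it was 0.40 and 0.28.

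The count of risers with the smaller rise in KO was not recomputed without either KO pachytene array. KO less WT over the 21 risers had a median of 0.01 in pachytene cells and -0.12 in spermatids, with 1 spermatid array per genotype. The 2 KO pachytene arrays also differed from each other in these genes. Over the 21 risers the median was 0.21 above the mean of the other 3 pachytene arrays on KO array 1 and 0.24 below it on KO array 2 (-0.24). On KO array 1 19 of the 21 lay above KO array 2, with a median gap of 0.28, while the WT arrays had a median gap of -0.10. The 13 fallers had a median gap of 0.04 between the KO arrays, and the 41 members not called had -0.06. Of all 17925 tested genes 7495 lay above KO array 2, with a median gap of -0.06. The share among all genes that rose was not taken. The spermatid markers moved the same way: their summed intensity was 47463 on KO array 1 and 38415 on KO array 2, against 42374 and 40249 on the WT pachytene arrays and 61803 to 63251 on the spermatid arrays. Their part in the smaller KO rises was not tested.

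In pachytene spermatocytes, no member passed for KO against WT. No gene of 17925 did in limma's fit with 4 group means (0% called), and 1 member, Rnf138rt1, had an unadjusted p under 0.05, against 2.40% of all tested genes. The median difference was 0.03 over the members and 0.03 over all tested genes. In size it was 0.10 at the median over the members and also over all tested genes. Of the members 45 lay above WT, against 59.9% of all tested genes. The groups did not overlap in 20 members, against 25% of all tested genes, with 12 higher (14.9%) and 8 lower (10.2%). On these arrays 9 of 11 Sertoli and 8 of 9 spermatogonial markers lay above WT, at medians of 0.12 and 0.11, and 1 of 6 Leydig markers did. Above WT also lay 7 of 9 pachytene, 7 of 10 spermatid, 6 of 8 peritubular and vessel, and 2 of 5 macrophage and blood markers. The Sertoli sums overlapped, at 8019 and 6730 on the WT and 8201 and 7801 on the KO pachytene arrays. The part of these cells was not tested here. For 74 of 75 members the 95% interval lay within 1 log2 unit of 0, the exception being Rnf5.

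Above WT without overlap, the largest differences were those of Rnf138rt1 at 0.39 (SE 0.16), Rnf215 at 0.35, Rnf34, a ligase of caspases, at 0.28, Rnf6 at 0.24 and Rnf31 at 0.22. Below WT were Rnf5 at -0.61 (SE 0.29, 95% interval -1.28 to 0.07), Rnf103 at -0.37, Rnf111, a ligase of TGF-beta signalling, at -0.36, Rnf157 at -0.28 and Rnf145 at -0.24. None passed in limma, with an adjusted p of 1 for each. Rnf133 lay higher still, at 0.40, but its KO array 2 at 10.01 lay between the WT arrays. The Rnf5 value rests on KO pachytene array 2, at 8.19, since KO array 1 at 9.11 lay next to WT array 1 at 9.17. It was -0.14 without KO array 2 and -1.07 without KO array 1. Rnf111 had the same shape, at -0.14 without KO array 2, and Rnf215 moved from 0.35 to 0.05 without it.

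In round spermatids, with 1 array per genotype and so no replicate check, 0 members differed at least 2-fold, where 0.385% of all tested genes did. At 1.5-fold it was 0 members as well, against 1.91%. Above WT lay 38 members, against 59.1% of all tested genes. The largest differences below WT were those of Rnf121 at -0.51, Rnf146 at -0.47, Rnf5 at -0.39, Rnf214 at -0.34 and Rnf111 at -0.33. Above WT were Rnf183 at 0.37, Rnf215 at 0.34, Rnf225 at 0.34, Rnf31 at 0.34 and Rnf138rt1 at 0.33. Of the 21 members that rose after meiosis 14 lay lower in the KO spermatid array, with a median of -0.12, and of the 13 that fell 6 did, with a median of 0.11. On the same arrays 11 of 11 Sertoli and 8 of 8 peritubular and vessel markers lay above WT, at medians of 0.25 and 0.32. So did 7 of 9 spermatogonial, 4 of 6 Leydig, 4 of 9 pachytene, 3 of 10 spermatid and 2 of 5 macrophage and blood markers. The part of these cells was not tested.

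Over both cell types, no member passed for KO against WT in limma's additive fit (0% of tested genes called, 5.46% at an unadjusted p under 0.05). The 4 members below that level were Rnf138rt1 at 0.37 (SE 0.11, adjusted p = 0.735 in limma), Rnf157 at -0.27, Rnf111 at -0.35 and Rnf5 at -0.53. In each of these genes all 3 KO arrays lay on the same side of the WT arrays of their cell type, as they did in 16 of 75 members (10 higher, 6 lower) and 18% of all tested genes (10.9% higher, 7.09% lower). Rnf138rt1 kept its direction under every alternative run, between 0.30 and 0.43. The next largest without overlap were Rnf215 at 0.35, Rnf31 at 0.26, Rnf34 at 0.21 and Rnf6 at 0.20 above WT, and Rnf103 at -0.30 and Rnf121 at -0.25 below it. A p that misses the threshold does not show that the genotypes were alike for these genes.

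**Figure D5:**
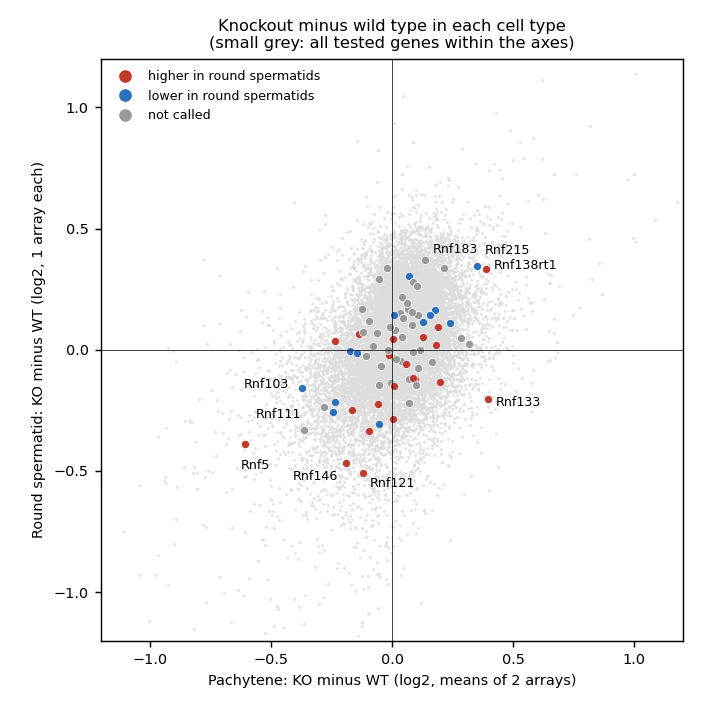
KO minus WT in pachytene spermatocytes (x axis, means of 2 arrays each) and in round spermatids (y axis, 1 array each), log2 intensity, for the 75 members as large points over the tested genes in grey. Red members rose and blue members fell after meiosis; all 75 lie between -0.61 and 0.40 on x and between -0.51 and 0.37 on y, with Rnf138rt1 at 0.39 and 0.33 and Rnf5 at -0.61 and -0.39.

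Other genes of the ubiquitin system were read from fixed lists in the additive fit for cell type. In that fit 17.8% of all tested genes rose and 17.1% fell. Of 39 tested E1 and E2 enzymes 3 rose and 7 fell, with a median of -0.05. Uba3, part of the E1 that activates the cullin modifier NEDD8, fell by 1.87. Ube2t, the E2 of the Fanconi pathway, fell by 1.76 and Sae1, part of the SUMO E1, fell by 1.32. The X-linked Ube2a, an E2 of histone H2B, rose by 1.67, the Y-linked E1 gene Uba1y by 1.52 and Ube2h by 0.55. Rbx1, the RING partner of most cullins as Rnf7 is of cullin 5, fell by 0.88.

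RING ligases without an Rnf symbol had 17 risers and 24 fallers among 96 tested, with a median of -0.07. Beside these and the HECT counts below stand the shares over all tested genes, 17.8% higher and 17.1% lower. Trim42, Znrf4 and Mex3b rose most, Trim42 by 1.65, while Syvn1, a ligase of the endoplasmic reticulum, Siah1a and Traf7 fell by 1.64, 1.42 and 1.21. Of 24 HECT ligases 9 rose, led by Hecw1 at 1.37, Huwe1 at 1.22 and Wwp2 at 1.13, and 5 fell, led by Hace1 at -1.22, Hectd4 at -0.54 and Smurf2 at -0.48. In these 3 lists 0 genes passed for KO against WT in pachytene spermatocytes or over both cell types in limma. In round spermatids, with 1 array per genotype, 1 gene of these lists differed at least 2-fold: the RING gene Unkl, whose KO array at 8.39 lay below the WT array at 10.52 by a log2 difference of -2.12. In pachytene cells Unkl, which lies on chromosome 17, differed by -0.46. The differences between these lists and the members were not tested.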

How the data were processed

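The authors deposited 1 intensity per transcript cluster on a linear scale. The submitters' processing notes name RMA and version 1.1 of Affymetrix Expression Console. The genome build of the array and the options of these steps are unknown here. The design had assumed log2 values, so log2 was taken of the deposited intensities first. Of 35556 clusters 21789 name 1 gene in the platform annotation, 1621 name several and 12146 are not listed, and 21698 single-gene clusters matched RefSeq (GRCm38.p6) by gene identifier. For each of 19938 genes the cluster of highest mean was used, and the 17925 genes that reached log2 6 on any array entered the tests.

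Models were fitted in R 4.3.3 with limma 3.58.1 (lmFit, eBayes, Benjamini-Hochberg over all tested genes, threshold 0.05). The additive fit has 3 residual degrees of freedom and the fit with 4 group means has 2, all from pachytene arrays, so a lone spermatid array borrows their spread. Round spermatids were also compared between genotypes by fold alone. The scripts were tested on simulated data. Precision is limited by the number of arrays. The members, the lists and the roles were chosen with earlier results of these data known. Named members are the 10 largest calls in each direction between cell types, the 5 largest non-overlapping KO differences in each direction, the testis-expressed, brightest, dimmest and paralogous members and the 4 smallest interaction p-values; others are named to complete a group. Of the other lists, up to 3 genes in each direction are named, and Rbx1 was added after its value was seen. Alternatives were another level filter, a second quantile normalization, centring, a trended and robust prior, the mean of a gene's clusters, a replicate block, and leaving out each array.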

Additional observations from a re-analysis of the deposited data

How the results depend on the processing

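Leaving out 1 array at a time, members that rose between the cell types numbered 8 to 23 and members that fell 5 to 16 in the additive fit, 3 to 21 and 3 to 11 in WT, and 4 to 18 and 4 to 9 in KO. Without a spermatid array the additive fit equals that of the other genotype alone, and the comparison within its own genotype and the interaction could not be fitted. The shares of all tested genes that passed moved too when an array was left out, as given above. Every other alternative kept the counts of members within 1.5 times. For KO against WT and the interaction the count of members stayed at 0 under every alternative run, while over all genes up to 21 passed over both cell types, without KO pachytene array 1. With the replicate number as a block, KO against WT in pachytene spermatocytes called 43 genes and 0 members, and over both cell types 2 genes and 0 members. Deviations of same-numbered arrays correlated at -0.23, so the numbers are not taken to pair the arrays. With crossed numbers, chosen after seeing the data, 88 genes and 0 members passed. Among the 21 called members named by rule, 252 values were recomputed between the cell types, of which 231 kept their call, 21 lost it and 0 changed sign. The number of arrays limits every call.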
